A study of Drosophila melanogaster with 12 samples.

Results

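The 10 genes described here encode proteins that start branched actin filaments: 6 subunits of the Arp2/3 complex (*Arp2*, *Arp3*, *Arpc1*, *Arpc2*, *Arpc3A* and *Arpc4*), the activators *SCAR* and *WASp*, and the SCAR complex subunits *Abi* and *HSPC300*. The rule takes them by name and uses no measured value, although they were picked with earlier results of these data known. They are 10 of the 17592 gene symbols listed in every RNA-Seq library. All 10 were expressed in pupal second legs of both strains, most of them well above the typical gene. None of the 7 that could be compared between the strains passed the test, which 2.64% of all entries did, and each of the 10 had a peak of open chromatin at an end in both strains, as did 60.6% of genes.

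The Arp2/3 complex binds the side of an existing actin filament and starts a new filament as a branch. Arp2 and Arp3, which resemble actin, form the base of the branch, and the Arpc subunits hold them together and bind the mother filament. The complex is nearly inactive by itself and is switched on by nucleation promoting factors such as SCAR and WASp. SCAR sits in a complex with Abi, HSPC300, Sra-1 and Hem that responds to Rac, whereas proteins of the WASp family can bind Cdc42 and membrane lipids. In *Drosophila* these genes are known for work in cell shape, adhesion, bristles and myoblast fusion, and WASp also for sensory organ lineages. Trichomes, the hairs whose pattern differs between the strains, are actin-filled outgrowths of single epidermal cells.

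The second (T2) legs came from pupae that had developed for 20 to 28 h after puparium formation (hAPF) at 25 °C. One strain, eworo, carries *ebony* 4, *white ocelli* 1 and *rough* 1 and has a large naked valley, the trichome-free patch on the posterior femur. The other is the wild type strain Oregon R (OreR), where that patch is small. There were 3 RNA-Seq libraries per strain, each a pool of the legs of about 80 pupae, and 1 deposited ATAC-Seq peak list per strain. The strains are separate stocks, so every difference below is between strains and not the effect of 1 allele, and in these mixed tissues fewer cells of a type and less RNA per cell cannot be told apart.

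Levels are FPKM values, the fragments of a gene relative to its transcript length and to the size of the library, so that genes can be set beside each other. The mean of each strain was above 1 FPKM for all 10 genes, and for 49.1% of all gene symbols. The mean over libraries ran from 11.7 FPKM for *WASp* to 176 FPKM for *HSPC300*, against a median of 19.0 FPKM over the 4848 entries compared. *WASp* lay above 36.8% of those entries and was the only 1 of the 10 below their median. *Abi*, the next lowest, lay above 70.9% of them, and *HSPC300* above 94.4%. The limits deposited beside each value were between 3.45% and 8.54% of it to either side in the libraries that list the gene alone, and they cover the uncertainty within a library only.

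In 3 of the 10 genes some libraries report the gene together with a neighbour under a single entry, and such a value cannot be assigned to the gene. *Arpc1* was joined with *DNApol-gamma35* in OreR replicate 2, *Arpc3A* with *CG4576* in eworo replicate 3 and OreR replicate 2, and *HSPC300* with *CR45350* in eworo replicate 2. These joined entries were at 143 FPKM for *Arpc1*, 269 and 207 FPKM for *Arpc3A* and 143 FPKM for *HSPC300*. For these 3 genes the values of the other libraries are given without a test. The other 7 were compared with the strains as the only term.

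**Figure D1:**
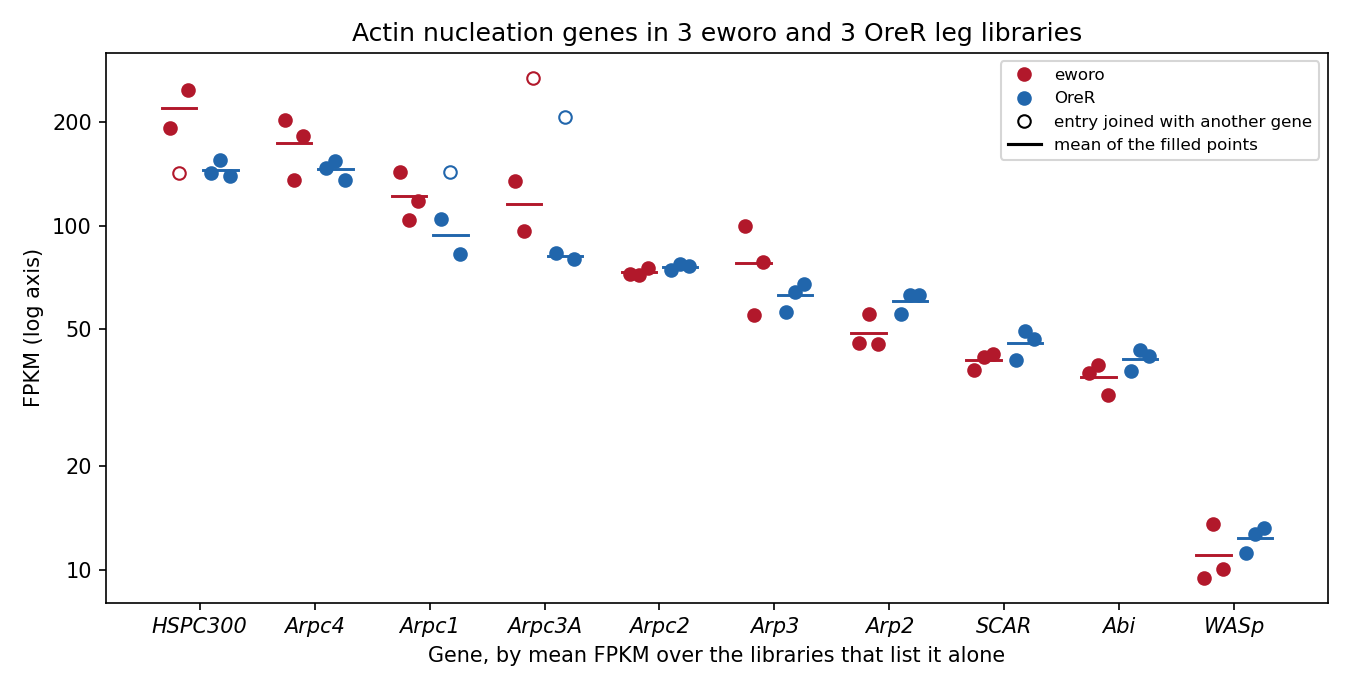
FPKM (log axis) of the 10 actin nucleation genes in each of the 3 eworo (red) and 3 OreR (blue) libraries, in the order of replicates 1 to 3 from left to right within a strain. Hollow points are entries joined with another gene, and lines are means of the filled points. *HSPC300* (176 FPKM over its filled points) and *WASp* (11.7 FPKM) are the ends of the range, and the points of the strains overlap in each of the 7 genes with no hollow point.

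Ranked by mean level, the order was *HSPC300*, *Arpc4*, *Arpc1*, *Arpc3A*, *Arpc2*, *Arp3*, *Arp2*, *SCAR*, *Abi* and *WASp*. The 9 neighbouring pairs in this order were put to an exact sign-flip permutation test over libraries, with Benjamini-Hochberg adjustment over the 9 pairs. Such a test cannot give a p below 0.03125 with 6 libraries, 0.0625 with 5 or 0.125 with 4. No pair could therefore have reached an adjusted p under 0.05, so that none did says nothing about the order. The pairs *Arp2* and *SCAR*, *SCAR* and *Abi*, and *Abi* and *WASp* kept their order in 6 of 6 libraries and reached the limit for 6 libraries (two-sided exact p = 0.03125, adjusted p = 0.0938 each). The widest step was the last, with *Abi* at 3.32 times the level of *WASp* (range 2.91 to 3.93 over libraries). *HSPC300* and *Arpc4* could not be ordered, since *HSPC300* was the higher in only 3 of 5 libraries, and *Arpc2* was above *Arp3* in 4 of 6. Within each strain 8 of the 9 pairs had the same order, the exceptions being *Arp3* above *Arpc2* in eworo and *Arpc4* level with *HSPC300* in OreR (146 FPKM each).

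The Arp2/3 complex contains each subunit once, and the transcripts of its subunits differed by a few fold. *Arp2* (X:16548290-16553968, Release 6) encodes an actin-related subunit and had the lowest mean of the 7 subunits, leaving out the *Arpc3* paralogue described below. Its level was 45.7, 55.6 and 45.4 FPKM in eworo replicates 1 to 3, against 55.5, 62.8 and 63.1 FPKM in OreR. In eworo 2 libraries were below every OreR library, while eworo replicate 2 lay just above OreR replicate 1. The fitted level in eworo was 0.81 times that in OreR (log2 difference -0.30 ± 0.12 SE, 95% interval -0.59 to -0.0077), which had an unadjusted limma p of 0.046 and an adjusted p of 0.317.

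*Arp3* (3L:8113407-8115902) encodes the other actin-related subunit. It was at 100.2, 54.9 and 78.3 FPKM in eworo, against 56.1, 64.3 and 68.0 FPKM in OreR. The eworo libraries held both the highest and the lowest value, so the OreR libraries lay inside their range. The log2 difference was 0.27 ± 0.23 (interval -0.31 to 0.85, limma adjusted p = 0.562). The per-strain value that the authors obtained with Cuffdiff was 66.7 FPKM for eworo and 70.6 FPKM for OreR, the opposite order to the means of the library values (77.8 ± 22.7 and 62.8 ± 6.07, SD, n = 3).

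*Arpc2* (2L:20417057-20423027), one of the subunits that contact the mother filament, varied least of the 10. It was at 72.7, 72.2 and 75.6 FPKM in eworo, against 74.2, 77.7 and 76.3 FPKM in OreR, and its highest library was 1.08 times its lowest. Only 0.309% of the entries compared had a smaller SD within strains. The log2 difference was -0.045 ± 0.068 (interval -0.22 to 0.13, limma adjusted p = 0.725), and the interval leaves out changes beyond 0.86 to 1.09 times. *Arpc4* (2L:6125132-6125911), the partner of Arpc2 in the core of the complex, had the second highest level of the 10 genes. It was at 203, 136 and 183 FPKM in eworo, against 147, 155 and 136 FPKM in OreR. Again 2 eworo libraries lay above all OreR libraries and eworo replicate 2 just below them (log2 difference 0.24 ± 0.16, interval -0.18 to 0.65, adjusted p = 0.503).

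*Arpc1* (2L:13827941-13829741), the propeller-shaped subunit near the site where activators bind, was at 144, 104 and 118 FPKM in eworo, against 105 and 82.7 FPKM in OreR replicates 1 and 3. The strains overlapped by the narrow margin between eworo replicate 2 and OreR replicate 1. *Arpc3A* (3R:15834648-15836021), which encodes the subunit between Arp3 and the core, was at 135 and 96.5 FPKM in eworo replicates 1 and 2 and at 83.4 and 80.1 FPKM in OreR replicates 1 and 3. These 4 values did not overlap between the strains, which was not tested, and among the entries compared in 3 libraries against 3 such a separation was seen in 23.2%. Values of 2 against 2 separate more easily than 3 against 3, so that share is not a like base. The authors' per-strain values were 119 and 94.4 FPKM for *Arpc1* and 111 and 84.1 FPKM for *Arpc3A*, with eworo first.

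The 2 remaining Arp2/3 genes belong to the same complex but not to the 10, and both were compared. *Arpc5* was at 130, 98.4 and 84.7 FPKM in eworo, against 112, 113 and 87.4 FPKM in OreR (log2 difference -0.0021 ± 0.19, adjusted p = 0.998). *Arpc3B*, the paralogue of *Arpc3A*, was at 45.7, 20.8 and 30.4 FPKM in eworo, against 18.7, 20.0 and 18.5 FPKM in OreR. Its libraries did not overlap between the strains, as in the 12.6% of all entries that separated with eworo higher. The log2 difference of 0.67 ± 0.28 had a limma adjusted p of 0.344. *Arpc3A* exceeded *Arpc3B* in each of the 4 libraries that list both alone, by 2.96 and 4.65 times in eworo and by 4.47 and 4.33 times in OreR. From *Arp2* (54.7 FPKM) to *Arpc4* (160 FPKM) the means of the subunits, *Arpc3B* aside, spanned 2.92 times.

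*SCAR* (2L:10976772-10982395) encodes the activator that presents actin to the Arp2/3 complex downstream of Rac. Its level was 38.2, 41.6 and 42.3 FPKM in eworo, against 40.6, 49.6 and 47.0 FPKM in OreR. The lowest OreR library lay among the eworo values (log2 difference -0.16 ± 0.11, interval -0.43 to 0.11, limma adjusted p = 0.50). *Abi* (3R:14119262-14122420), the subunit that links SCAR to the rest of its complex, was at 37.3, 39.5 and 32.3 FPKM in eworo, against 38.0, 43.5 and 41.7 FPKM in OreR. Its difference was of the same size (-0.17 ± 0.11, interval -0.45 to 0.11, adjusted p = 0.483). Within libraries *SCAR* and *Abi* were nearly level, at a ratio of 1.02, 1.05 and 1.31 in eworo and 1.07, 1.14 and 1.13 in OreR.

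*HSPC300* (2R:24027717-24028789), the smallest subunit of the SCAR complex, was at 193 and 248 FPKM in eworo replicates 1 and 3 and at 143, 155 and 139 FPKM in OreR. Both eworo values were above the 3 of OreR, and the authors' per-strain values, 140 FPKM for eworo and 100.4 FPKM for OreR, had the same order at lower levels. That separation was not tested. Among the entries compared, 12.6% separated with eworo higher in 3 libraries against 3, and 2 against 3 separate more easily. The joined entry in eworo replicate 2, at 143 FPKM, was within the OreR range although it also holds a second gene. The other subunits, *Sra-1* (52.9 to 62.1 FPKM) and *Hem* (35.5 to 49.7 FPKM), lay close to *SCAR* and *Abi*, and the means of these 4 genes spanned 1.5 times. *HSPC300* therefore stood apart from its complex, at 4.40 and 6.08 times their mean in eworo and at 3.05, 3.08 and 2.86 times in OreR. *Sra-1*, which binds Rac, and *Hem* had limma adjusted p of 0.562 and 0.397 between the strains. Neither overlapped between the strains, with eworo lower, as in 10.6% of all entries. *Sra-1* was at most 59.04 FPKM in eworo and at least 59.06 FPKM in OreR, and *Hem* 45.0 and 46.8 FPKM.

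*WASp* (3R:28824506-28832024) encodes the other activator, of a family that can bind Cdc42. It was the lowest of the 10 in every library, at 9.49, 13.6 and 10.0 FPKM in eworo, against 11.2, 12.7 and 13.2 FPKM in OreR. The highest value and the 2 lowest were all from eworo (log2 difference -0.16 ± 0.16, interval -0.57 to 0.25, adjusted p = 0.608).

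The balance of the 2 activators was taken in each library separately, as the ratio of *SCAR* to *WASp*. It was 4.03, 3.07 and 4.21 in eworo and 3.63, 3.91 and 3.55 in OreR, with means of 3.77 ± 0.613 and 3.70 ± 0.187 (SD, n = 3). A two-sided exact permutation test over libraries gave p = 0.9, where 3 against 3 cannot go below 0.1. The sign of the log2 difference in this ratio, 0.015, turned when eworo replicate 1 (-0.039), eworo replicate 3 (-0.072) or OreR replicate 3 (-0.013) was left out. The ratios of *Arp3* to *Arp2* and of *SCAR* to *Abi* were chosen after their values had been seen. *Arp3* to *Arp2* was 2.19, 0.988 and 1.72 in eworo and 1.01, 1.02 and 1.08 in OreR. The OreR libraries were thus within a narrow band near 1, which eworo replicate 2 nearly joined and the other eworo libraries exceeded (exact p = 0.4).

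**Figure D2:**
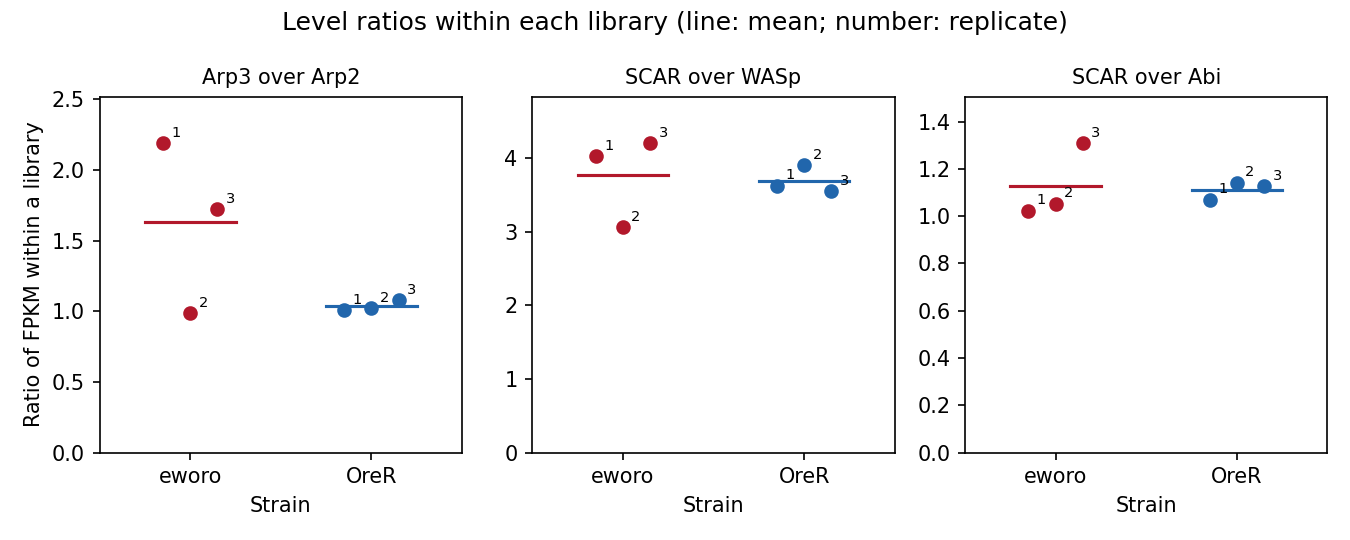
Ratio of FPKM within each library for *Arp3* over *Arp2*, *SCAR* over *WASp* and *SCAR* over *Abi*, by strain, with the replicate number beside each point and a line at the mean. *Arp3* over *Arp2* spreads from 0.988 to 2.19 in eworo and from 1.01 to 1.08 in OreR, and the other ratios overlap between the strains.

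Across the 7 genes compared, 0 passed the limma threshold of 0.05 after adjustment over all 4848 entries, of which 2.64% passed (84 higher and 44 lower in eworo, 1.73% and 0.908%). At an unadjusted p under 0.05 there was 1 gene of the 7, *Arp2*, against 15.3% of all entries. None of the 7 had libraries that did not overlap between the strains, where 12.6% of all entries did so with eworo higher and 10.6% with eworo lower. The fitted level was lower in eworo for 5 genes (*Arp2*, *Arpc2*, *SCAR*, *WASp* and *Abi*) and higher for 2 (*Arp3* and *Arpc4*). The median log2 difference of the 7 was -0.16, beside -0.012 over all entries, and it was -0.048 once the trend with gene span described below was removed. The median SD within strains was 0.14 beside 0.21. The count of 0 held under each of the 17 alternatives run, with the smallest adjusted p of any of the genes at 0.100 for *Arp2* when eworo replicate 2 was left out. Single libraries weighed on the size of the differences. Without eworo replicate 2, *Arp2* (-0.40), *Arp3* (0.49) and *Arpc4* (0.40) had unadjusted limma p of 0.011, 0.030 and 0.013, as 1310 of 4843 entries had one under 0.05, and *WASp* was at -0.31. Without eworo replicate 1, *Arp3* was at 0.074, *Arpc4* at 0.12 and *WASp* at -0.066.

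**Figure D3:**
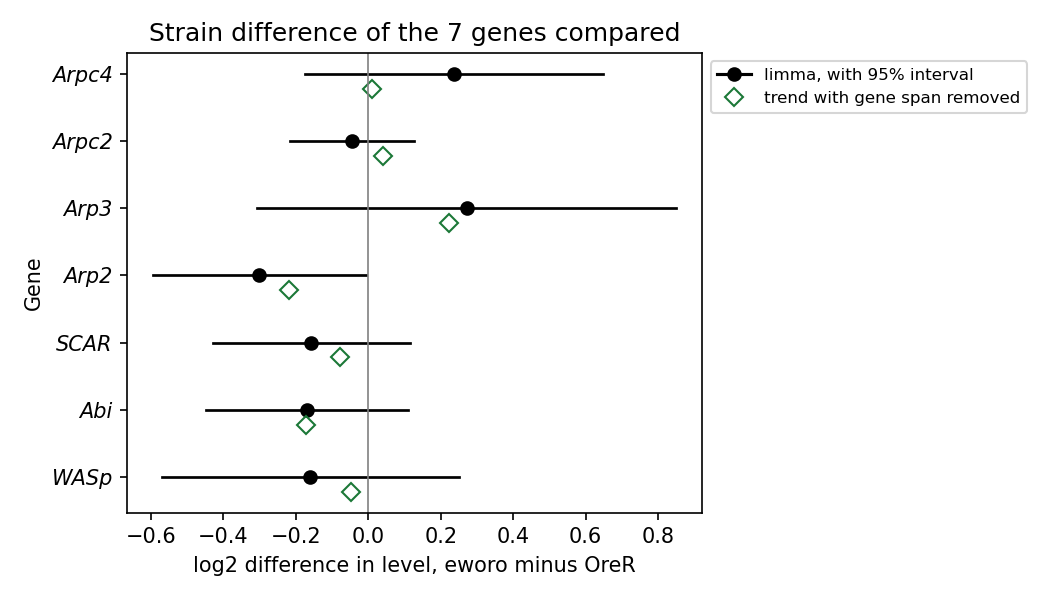
log2 difference in level, eworo minus OreR, of the 7 genes compared, with 95% intervals from limma (black) and the value after the library-wise trend with span was taken out (green diamonds). The intervals of 6 genes include 0 and that of *Arp2* ends at -0.0077, and that removal moves *Arpc4* from 0.24 to 0.010 and *Arpc2* from -0.045 to 0.041.

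The way the genes varied between libraries followed the length of the gene on the chromosome (its span), a split at 3 kb chosen after the values had been seen. The 5 genes under 3 kb (*Arp3*, *Arpc1*, *Arpc3A*, *Arpc4* and *HSPC300*) were all above their own mean in eworo replicate 1, with a median log2 deviation of 0.40 (0.17 to 0.54). The 5 longer genes (*Abi*, *Arp2*, *Arpc2*, *SCAR* and *WASp*) were all below theirs in that library, with a median of -0.17 (-0.29 to -0.041). The same contrast was seen in eworo replicate 3, with medians of 0.20 and -0.21. In eworo replicate 2 the contrast was the other way round, with medians of -0.14 and 0.035, as it was in OreR replicate 2 (-0.097 and 0.17) and OreR replicate 3 (-0.27 and 0.13). OreR replicate 1 had medians of -0.21 and -0.022. Joined entries were left out of the means and deviations. The shorter genes therefore gave 4 values each in eworo replicates 2 and 3, and 3 in OreR replicate 2.

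The split was not particular to these genes. Over all entries compared, the median log2 difference between the strains was 0.18 for the 1566 entries that span up to 2 kb, 0.0011 from 2 to 5 kb, -0.14 from 5 to 10 kb and -0.24 for the 1001 entries over 10 kb. By library, the median log2 deviation of entries up to 2 kb was 0.22, -0.11 and 0.18 in eworo replicates 1 to 3. In OreR it was -0.063, -0.019 and -0.15. Entries over 10 kb were at -0.37, 0.19 and -0.13 in eworo, and at 0.10, 0.018 and 0.25 in OreR. In both classes eworo replicate 2 thus had the opposite sign to the other eworo libraries. When the trend with span was removed in each library, the differences of most of the 7 genes shrank or turned sign, to -0.22 for *Arp2*, 0.22 for *Arp3*, 0.041 for *Arpc2*, 0.010 for *Arpc4*, -0.078 for *SCAR* and -0.048 for *WASp*. *Abi* stayed at -0.17. The part of gene span in the strain differences was not otherwise tested.

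**Figure D4:**
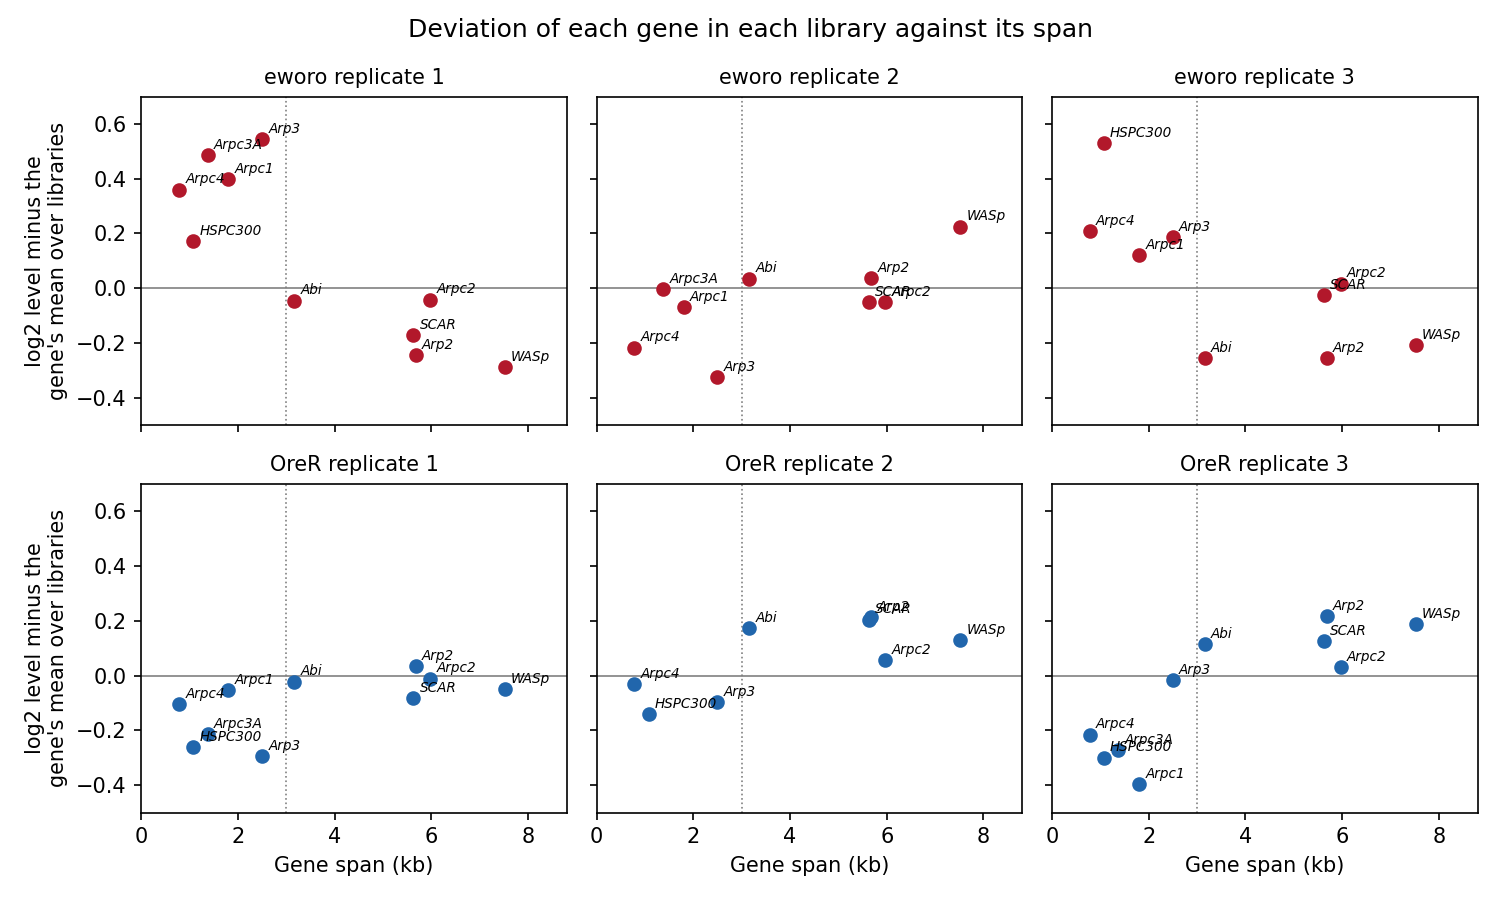
Deviation of the log2 level of each gene from its own mean over libraries, against the span of the gene in kb, 1 panel per library, with a dotted line at 3 kb. In eworo replicate 1 the 5 shorter genes lie at 0.17 to 0.54 and the 5 longer genes at -0.29 to -0.041, and in OreR replicate 3 the shorter genes lie below the longer ones.

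The genes that act on the Arp2/3 complex or beside it gave a similar picture, with 0 genes past the threshold in the 4 lists described, where 2.64% of all entries passed. Of the 15 genes compared in 4 such lists, 0 had an unadjusted limma p under 0.05, beside 15.3% of all entries. The members of the lists named here are the 2 with the highest mean among those compared. Of the WASp partners and the WASH complex, which activates Arp2/3 on endosomes, 3 of 9 genes could be compared. *Cip4*, a membrane-bending partner of WASp, was at 49.5 to 74.1 FPKM in eworo, against 73.1 to 91.2 FPKM in OreR (adjusted p = 0.402). *Vrp1*, the WASp-interacting protein Verprolin, was at 6.63 to 21.3 FPKM in eworo, whereas OreR replicate 2 lists it at 0 beside 12.6 and 21.0 FPKM in the other OreR libraries. A listed 0 of this kind may be a failed estimate, and no difference is given for the gene.

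Among the genes that stabilise or oppose Arp2/3 branches, *Cortactin*, which holds branches in place, was at 68.5 to 85.8 FPKM in eworo, against 76.1 to 87.6 FPKM in OreR. *Synd*, a membrane-bending protein, was at 60.9 to 68.9 and 61.8 to 70.7 FPKM. Neither approached the threshold (adjusted p = 0.642 and 0.916), and all 4 genes of this list that were compared had a lower fitted level in eworo (median -0.093). The formins and Spire, which start unbranched filaments, had a median of -0.14 over the 3 genes compared. This turned to 0.050 once the trend with span was removed, while the median of the list before went to -0.19. *capu* was at 26.4 to 34.8 FPKM in eworo, against 34.7 to 39.8 FPKM in OreR, and *Fhos* at 17.9 to 27.1 and 23.3 to 25.6 FPKM. The genes for monomer binding, capping and turnover had a median of -0.11 over the 5 genes compared, and of -0.095 with that trend removed. Of these, *flr* (123 to 136 and 131 to 146 FPKM) and *cpa* (81.5 to 91.6 and 80.4 to 98.9 FPKM) were the highest.

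Lists of tissue markers were read beside these values, and the markers named below were not picked by level. Counting joined entries, a mean above 1 FPKM in both strains was found for 9 of 9 epidermal, 12 of 14 muscle, 10 of 11 haemocyte, 6 of 10 neuronal, 6 of 6 tracheal and 4 of 6 fat body markers. A joined value cannot be assigned to the marker, so these counts may be too high. The list called neuronal here also holds the glial gene *repo*. The 5 epidermal markers compared summed to 229 to 377 FPKM in eworo, against 331 to 416 FPKM in OreR. Their median log2 difference was -0.39, and -0.12 once the trend with span was removed, with *baz* level between the strains. The 7 muscle markers with a value in each library or at 0 summed to 24.8 to 27.3 FPKM in eworo, against 24.5 to 76.6 FPKM in OreR, with *Mf* and *Prm* under 1 FPKM throughout. The median was -0.78 over the 5 muscle markers compared and -0.28 over the 5 neuronal ones, where it was the value of *repo*. In each of these 3 lists all 5 genes had a lower fitted level in eworo, and none passed the threshold. Among them *elav* is listed at 0 in eworo replicate 1, and *Act88F* at 0 in eworo replicate 2 and OreR replicate 2. Such a 0 may be a failed estimate. The plain mean of *elav* was higher in eworo, at 7.77 against 6.88 FPKM.

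The 7 genes of the neuronal list summed to 9.80 to 37.6 and 17.6 to 38.9 FPKM, with *para* under 1 FPKM in each library. Of these sums the glial gene *repo* held 5.71 to 6.98 FPKM in eworo and 7.50 to 8.85 FPKM in OreR. The 3 haemocyte markers summed to 34.8 to 43.0 and 33.1 to 34.1 FPKM. *Hml*, a haemocyte gene too low to be compared, was at 1.10, 2.12 and 0.867 FPKM in eworo. In OreR it was at 0.293 FPKM in replicate 1 and a listed 0 in the others. Those low values did not overlap between the strains, as in 23.2% of the entries compared. The haemocyte markers compared did overlap. *Col4a1* was at 31.0 to 36.0 FPKM in eworo, against 30.9 to 33.4 FPKM in OreR, and *eater* at 1.97 to 4.79 and 0.716 to 2.45 FPKM. The 5 fat body markers summed to 163 to 352 and 241 to 321 FPKM, and they did not move together. *apolpp*, a lipid carrier, is listed at 0 in the 3 eworo libraries and at 12.1, 2.99 and 19.3 FPKM in OreR (limma adjusted p = 0.069). *Lsp1alpha* and *Fbp1*, for a storage protein and its receptor, had higher fitted levels in eworo (log2 differences 1.21 and 1.10, adjusted p = 0.346 and 0.419). Of the tracheal list only *bnl* was read alone in every library, at 0.554 to 3.95 and 1.03 to 3.53 FPKM. It encodes a ligand that guides tracheal cells, so its level does not measure tracheal tissue. The part of other tissues in the levels of the actin nucleation genes was not tested.

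The single genes whose profile over the 6 libraries was nearest to the mean standardised profile of the 7 genes were *lace*, *CG17163*, *CG13086*, *CG5482* and *CG15650*, of 4362 searched. *lace* had a Pearson r of 0.990 and was at 17.5, 17.7 and 17.5 FPKM in eworo, against 16.8, 20.6 and 19.9 FPKM in OreR. *CG5482* had an r of 0.974 and was at 76.9, 75.1 and 76.0 FPKM in eworo, against 72.4, 90.2 and 82.8 FPKM in OreR. The other 3 are listed at 0 in 4 libraries. These coefficients are a description over 6 points picked from all the genes searched.

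ATAC-Seq marks chromatin that is open to a transposase, and peaks of it are common at promoters. At 1 or both ends of each of the 10 genes a peak was found in both strains, as at 60.6% of 13946 protein-coding genes, counting from 250 bases outside the gene end to 50 bases inside. Both ends were tested because the annotation used carries no strand. *Arpc1* was the only 1 with peaks at both ends in both strains, a pattern of 9.09% of genes. With peaks of -log10 q above 10 alone, 7 genes kept a peak, all but *Arp2*, *Arpc3A* and *HSPC300*, and 29.6% of all genes did. With the summit inside the window 8 did, all but *Arpc2* and *SCAR*, beside 53.5% of all genes.

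The highest peaks in these windows had summit pileups of 52 to 85 tags in eworo and 54 to 85 in OreR, where the medians of all peaks were 59 and 61. *Arpc2* had the highest, 85 tags in both strains, in a peak of 578 and 570 bases that covers its lower end (2L:20416998-20417575 in eworo) and has its summit 347 and 348 bases inside the gene. *Arpc2* also hosts 17 snoRNA genes, and its peak cannot be assigned to 1 of them. *Arpc3A* had the lowest, 52 and 54 tags, in a peak of 90 bases in each strain with the summit 4 and 7 bases inside the lower end. *Arpc4*, with 74 and 73 tags, had its summit at 6 and 13 bases inside. The peak at *WASp*, the gene with the lowest RNA level, had 74 and 80 tags and was no lower than that of *HSPC300*, with 65 and 66.

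At *SCAR* the strains differed in how the peaks were split. In eworo a peak of 199 bases with 72 tags lay at the gene end, followed by a peak of 508 bases with 82 tags whose summit was 450 bases inside the gene. In OreR a single peak of 762 bases, with 82 tags and the summit 452 bases inside, covered both. At *Abi* the highest peak, 121 and 124 bases long with 74 and 76 tags, lay outside the gene, and the neighbouring gene *twf* begins or ends 233 bases away, so that the peak cannot be assigned to 1 of them. Close neighbours were common, and *SCAR* itself overlaps *piwi* by 191 bases and *Arpc4* overlaps *WDR79* by 33, where RNA fragments cannot be assigned without their strand.

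Within 1000 bases of the 10 genes there were 48 peaks in eworo and 45 in OreR, and 42 (87.5%) and 39 (86.7%) of them overlapped a peak of the other strain, near the 81.7% and 86.6% of all peaks that did. The 6 of each strain that did not had low summits, between 43 and 50 tags, and 43 was the lowest of all peaks around these genes. With 1 list per strain there was no replicate check and the heights were not tested between the strains.

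**Figure D5:**
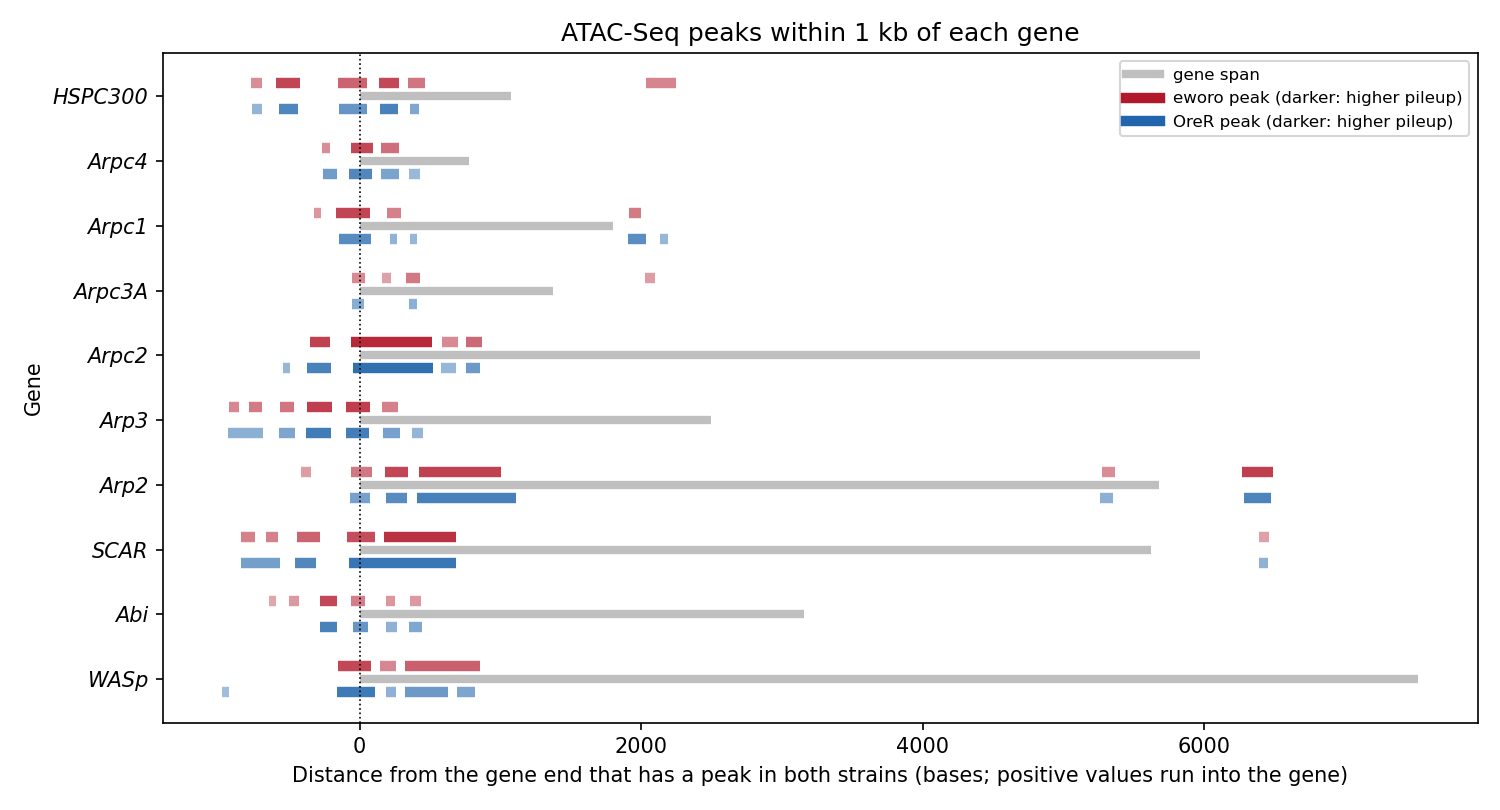
ATAC-Seq peaks within 1 kb of each gene in eworo (red, above the grey gene span) and OreR (blue, below it), as distance in bases from the gene end that has a peak in both strains, with positive values inside the gene. Darker bars have higher summit pileups. Peaks cross or adjoin the dotted line in both strains at each gene, and those seen in 1 strain alone are pale.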

How the data were processed

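RNA-Seq of 3 libraries per strain and ATAC-Seq peak lists of 1 pooled set per strain were used. For the RNA the authors aligned reads from stranded libraries with TopHat2 2.1.1 and deposited an FPKM per gene and library from Cufflinks 2.2.1, not scaled between libraries; depth per library is not among the values used here. Whether counting used strand is not given in the sources used here. The Cuffdiff table holds a per-strain FPKM, cited as the authors' value; its fold changes and p-values were not used. For the peaks the authors deposited MACS2 output called on pooled reads without a control at a q of 0.01: the signal (pileup of tags) at the summit, its fold over the surroundings, and the q-value as -log10. Filtered tags were 53862732 in eworo and 56972082 in OreR.

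Genes were found by symbol. Entries with the same name in all 6 libraries (11903) and a mean above 1 FPKM (4848) were divided by a median-of-ratios factor (0.998 to 1.01), and log2(FPKM + 1) was fitted in limma 3.58.1 (R 4.3.3) with strain as the only term, so that differences of low genes are understated. Adjusted p are Benjamini-Hochberg values over all 4848 entries, with a threshold of 0.05. The fit was also run on simulated data with independent noise and no trend with span, and no result here rests on that run. Ratios and order used exact permutation tests (Python 3.11.15, numpy 2.4.6, pandas 2.3.3, scipy 1.17.1), and figures matplotlib 3.10.9. Gene positions are Release 6 from RefSeq without strand, so the promoter window was set at both ends of each gene. Named genes are the 10 members and the 5 nearest profiles. Of each list described, tissue markers aside, the genes past the threshold or otherwise the 2 highest compared are named. *Arpc3B* and *Hem* were added to give each complex whole. The tissue markers named were not picked by this rule. The result of 1 further list is not reported here. The members and lists were chosen with earlier results of these data known. Replicates were not paired: same-numbered libraries of the strains had correlated deviations of -0.037, -0.11 and 0.050.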

Additional observations from a re-analysis of the deposited data

How the results depend on the processing

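Of the 7 genes compared, 0 passed the threshold under each of the 17 alternatives. The count over all entries, 128, fell to 71 with a mean above 5 FPKM and to 27 with the replicate block, ran from 60 to 153 when 1 library was left out, and was within 1.5 times of 128 otherwise. The replicate numbers do not pair the libraries, and the block changed no call among the 7 genes. The median log2 difference of the genes compared, -0.16, was 0.046 when joined entries took the value of the entry, which brings in *Arpc1*, *Arpc3A* and *HSPC300* with their neighbours, was -0.048 with the trend with span removed, and ran from -0.23 to -0.066 when 1 library was left out. *Arpc2* turned from -0.045 to 0.041 when the trend with span was removed, and no other gene changed sign. Without 1 library *Arp3* (0.27) ran from 0.074 to 0.49, *Arpc4* (0.24) from 0.12 to 0.40, *WASp* (-0.16) from -0.31 to -0.066, *SCAR* (-0.16) from -0.25 to -0.095, *Abi* (-0.17) from -0.23 to -0.091, *Arpc2* from -0.071 to -0.028 and *Arp2* (-0.30) from -0.40 to -0.25. The log2 difference in the *SCAR* to *WASp* ratio ran from -0.072 to 0.16 without 1 library. That of *Arp3* to *Arp2*, an alternative added after seeing the data, was 0.58 and ran from 0.33 to 0.91. No depth per library was used, so precision rests on the spread between 3 libraries.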
